A study of Mus musculus with 6 samples.

Results

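Genes of the interferon system were described in the left atrium of mice with mitral regurgitation and of sham-operated mice. The set was taken by gene symbol: the Ifit, Ifitm, Ifi, Oas, Gbp, Isg, Irgm and Iigp families, Bst2, Mx1, Mx2 and Rsad2, and the transcription factor genes whose symbols begin with Irf or Stat and a number. This rule found 87 of the 55471 genes in the deposited table. It also takes in 3 genes of the IRF2-binding protein group (Irf2bp1, Irf2bp2 and Irf2bpl) and Isg20l2, which share a name with the interferon genes more than a function. In the MR group (n = 3), male C57BL/6J mice that were adult at an age of 10 weeks, the anterior mitral leaflet was punctured under echocardiographic guidance so that the valve leaked. The Sham group (n = 3) had the same strain, sex and age and an apical puncture that left the leaflet intact. Left atria were taken 2 weeks after surgery, and poly(A) RNA was sequenced with 1 library for each of the 6 samples, which the design text calls biological replicates. The tissue is bulk, so fewer cells of a type and less RNA per cell cannot be told apart in any of the values given here.

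Interferons are secreted proteins that warn cells of virus and tissue damage. Type I interferons bind a receptor whose Janus kinases phosphorylate STAT proteins, STAT2 among them, and these join IRF9 in a complex that binds the interferon-stimulated response element in promoters. Interferon gamma acts through STAT dimers that bind the gamma-activated site instead. The genes switched on in this way encode antiviral effectors such as the IFIT, OAS, MX and GBP proteins, and in the injured mouse heart macrophages are a known place of this response.

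The promoter sequences show the response element that many members carry. A promoter window of 300 bases, 250 of them before the start, was found in RefSeq (GRCm38.p6) for 65 of the 87 members. The letters GAAA, any 2 bases and GAAA again, a core of the interferon-stimulated response element, stood on either strand in 32 of these 65 members (49.2%), against 3.99% of the 27025 genes with a window. The letters TTC, any 3 bases and GAA, the palindrome of the gamma-activated site, stood in 15 of the 65 (23.1%), against 9.55% of all genes. Among tested members outside the Irf and Stat genes the first motif was present in 25 of 37 (67.6%), and among tested Irf and Stat genes in 2 of 16 (12.5%). Shown first are stretches of 4 members that did not differ between MR and Sham beyond the threshold used below. They are read 5′ to 3′ on the strand of the gene, with the matches to the response element letters or their reverse complement in capitals.
Isg15 (chr4:156200856-156200915, minus strand): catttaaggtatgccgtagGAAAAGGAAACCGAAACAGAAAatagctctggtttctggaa
Ifit1 (chr19:34640769-34640828, plus strand): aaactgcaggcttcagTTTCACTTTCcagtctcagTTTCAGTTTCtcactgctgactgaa
Ifit3 (chr19:34583365-34583424, plus strand): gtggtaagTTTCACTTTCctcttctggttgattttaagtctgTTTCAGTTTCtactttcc
Irgm1 (chr11:48871421-48871480, minus strand): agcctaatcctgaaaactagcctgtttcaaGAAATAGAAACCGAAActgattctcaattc

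The same letters stood in members that were higher in MR than in Sham, of which 4 are shown for comparison.
Bst2 (chr8:71537565-71537624, minus strand): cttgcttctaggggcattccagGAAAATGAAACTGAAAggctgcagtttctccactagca
Gbp2 (chr3:142620579-142620638, plus strand): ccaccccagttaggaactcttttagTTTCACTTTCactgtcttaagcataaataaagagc
Oas1g (chr5:120887614-120887673, minus strand): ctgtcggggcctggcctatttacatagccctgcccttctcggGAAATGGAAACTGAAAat
Ifi203 (chr1:173942493-173942552, minus strand): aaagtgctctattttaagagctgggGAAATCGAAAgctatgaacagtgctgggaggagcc
Isg15 held 3 overlapping matches in a row, and Irgm1, Bst2 and Oas1g each held 2 overlapping matches. The motif was present in 7 of the 15 higher members with a window (46.7%) and in 20 of the 35 members that passed in neither direction (57.1%). The gamma-activated site is shown in 2 members of the IRF family, its matches in capitals.
Irf1 (chr11:53769898-53769957, plus strand): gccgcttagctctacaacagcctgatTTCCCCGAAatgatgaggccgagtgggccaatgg
Irf8 (chr8:120736170-120736229, plus strand): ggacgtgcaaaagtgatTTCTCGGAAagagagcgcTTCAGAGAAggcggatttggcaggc
Irf8, a myeloid factor, was higher in MR and Irf1 passed in neither direction. A match describes these letters only and is not a measured binding site.

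Libraries held 14124407 to 20039490 counts, and levels below are in CPM, the count as a share of the TMM-scaled library size. Atrial muscle markers were abundant in every library: their summed level was 31418 to 47059 CPM in MR and 52627 to 59393 CPM in Sham, and 6 of 7 were lower in MR. That count was 2 with scaling by library totals, 6, 3 and 1 without MR 1, MR 2 and MR 3, 0, 3 and 0 without Sham 1, Sham 2 and Sham 3, and 1 with MR 3 alone. Of 11 macrophage and monocyte markers 10 were higher in MR, and their summed level was 703 to 931 CPM in MR and 508 to 522 CPM in Sham. Fat cell markers stood apart in 2 MR libraries: summed levels were 338, 595 and 3.34 CPM in MR libraries 1 to 3, and 2.18, 0.365 and 10.1 CPM in Sham libraries 1 to 3. Each main count is therefore also given with MR 3 as the sole MR library, in which fit MR 3 is assumed to vary like the Sham libraries.

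Of the 87 members 71 had enough counts to be tested, 23 of them were higher in MR, 3 were lower and 45 passed in neither direction (edgeR quasi-likelihood test, adjusted p under 0.05 over all 15218 genes tested). The background was large: 11.8% of all tested genes were higher and 10.6% were lower, 22.4% in either direction. Members thus stood at 32.4% higher and 4.23% lower. A positive log2 fold change was found for 55 of the 71 members, against 50.1% of all tested genes, and the median was 0.28 for members and 0.00 for all tested genes. The 3 MR values all lay above the 3 Sham values for 27 members and all below them for 3, where the background was 20.6% and 21.2% of tested genes. Members took 0.193, 0.203 and 0.199% of the unscaled counts in MR libraries 1 to 3, and 0.150, 0.154 and 0.171% in Sham libraries 1 to 3. The TMM factors were 1.07, 1.109 and 1.045 in MR libraries 1 to 3 and 0.938, 0.914 and 0.941 in Sham libraries 1 to 3. TMM scaling therefore lowers the MR shares and raises the Sham shares, so the gap between these raw shares overstates the scaled one. Among the 53 tested members outside the Irf and Stat genes, Isg20l2 included, 20 were higher and 0 lower, and among the 18 tested Irf and Stat genes, Irf2bp1 included, 3 were higher and 3 lower. With scaling by library totals these counts were 28 and 0, and 8 and 1, and the difference between the gene groups was not tested. Most changes were small, since only 4 of the 26 members past the threshold had a log2 fold change of 1 or more. The share of all called genes with such a change was not taken. In edgeR's glmTreat test against a change of 1.5-fold 0 of the 71 members passed (7 at an unadjusted p under 0.05). Only 250 of all 15218 tested genes passed it, so the 0 does not set the members apart from other genes. The higher count depended on the libraries used, with 17, 12 and 13 without MR 1, MR 2 and MR 3, 7, 8 and 18 without Sham 1, Sham 2 and Sham 3, and 7 with MR 3 alone. Those 7 were Gbp2, Gbp6, Ifi27, Ifi47, Ifitm3, Mx2 and Oasl2. The lower count was 3 without MR 1 and 1 without any other library or with MR 3 alone. DESeq2 called 15 higher and 2 lower, without Bst2, Gbp11, Ifi209, Ifi35, Ifitm10, Irf8, Oas1b, Oas1g and Irf2bp1 (adjusted p 0.0586 to 0.125 there), and scaling by library totals 36 and 1. That scaling moved the median of all genes by 0.21 on the log2 scale and called 4025 genes higher and 574 lower, against 1793 and 1615 with TMM scaling, so that directions given here are relative to the TMM scaling. The number of all tested genes past the threshold, 3408 with all libraries, also changed when a library was left out. It was 3453, 1941 and 2637 without MR 1, MR 2 and MR 3, and 1583, 1897 and 2288 without Sham 1, Sham 2 and Sham 3. A loss of calls in these fits was thus not particular to the members. Past the threshold without each of the 6 libraries in turn were 7 members: Ifi27, Ifi47, Ifitm2, Ifitm3, Irf5, Oasl2 and Stat5b.

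**Figure D1:**
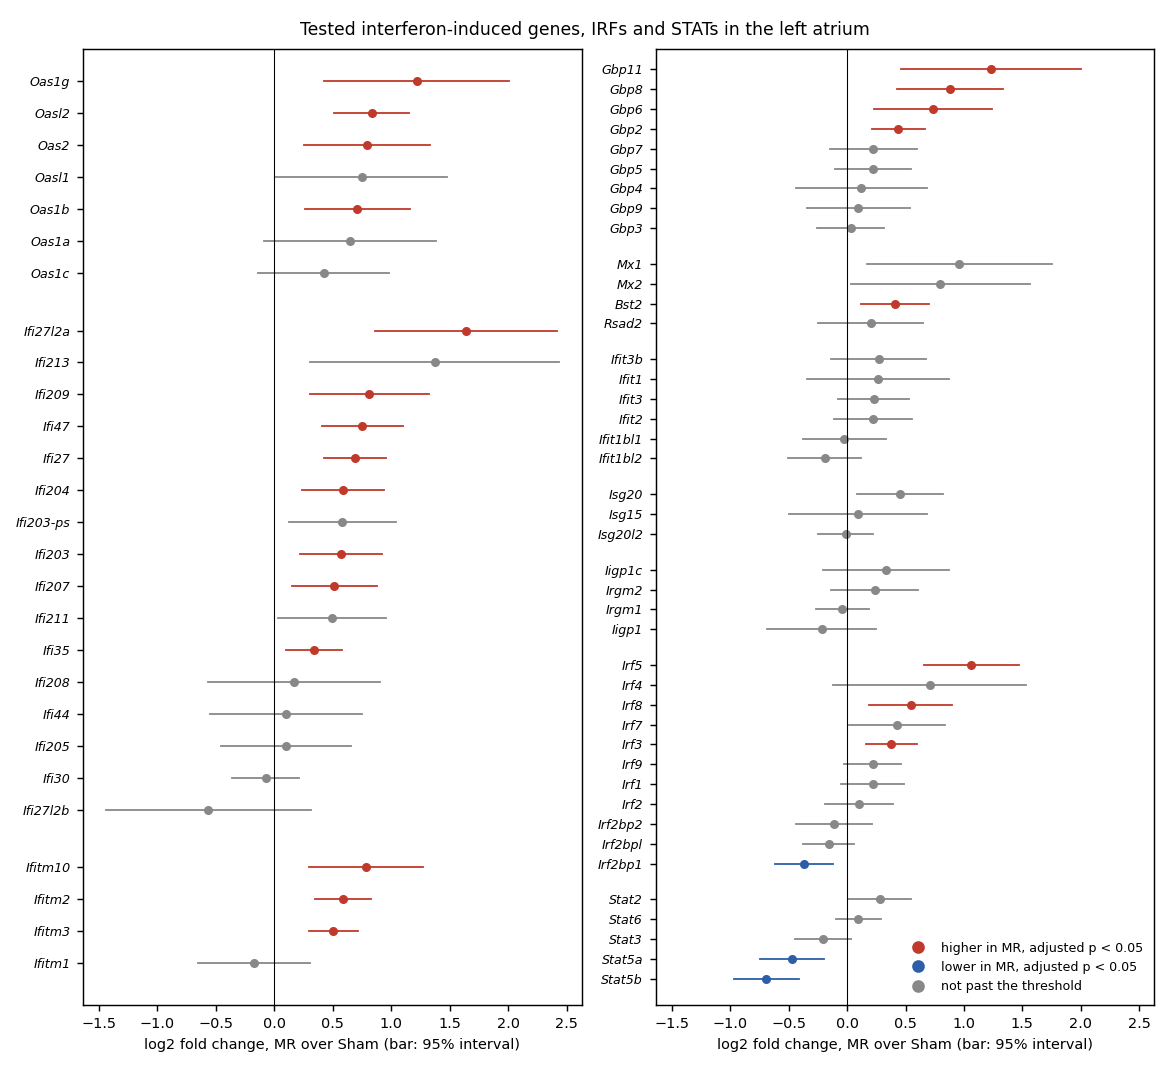
Log2 fold change of MR over Sham for tested members (points) with its 95% interval (bars), grouped by family; red marks members higher in MR, blue lower and grey not past the threshold. The Ifi family holds 8 red points and the Oas and Gbp families 4 each, the Ifit, Isg, Irgm and Iigp families hold none, and the blue points are Stat5a, Stat5b and Irf2bp1.

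The STAT genes, which encode the factors that carry cytokine receptor signals to the nucleus, gave 0 of 6 tested members higher in MR and 2 lower. Of all tested genes 11.8% were higher and 10.6% lower, and 6 genes are too few to set against these shares. With scaling by library totals 2 STAT genes were higher, Stat2 and Stat6, and 1 lower, Stat5b. Stat5b, which transmits growth hormone and cytokine signals, was the most abundant STAT gene per gene length. TPM, the authors' length-scaled abundance, carries no TMM scaling, so the ratio of TPM means here and below is not the tested change. Stat5b had 63.3 ± 10.1 TPM in MR and 81.2 ± 6.99 in Sham (SD, n = 3 each). Its level was 156, 112 and 141 CPM in MR and 218, 211 and 231 CPM in Sham. All MR libraries lay below all Sham libraries, and the log2 fold change was -0.69 ± 0.12 (SE, adjusted p = 0.00602, edgeR). Stat5a, its close paralog and neighbour on the chromosome, had 41.6, 28.7 and 34.1 CPM in MR and 48.8, 48.2 and 47.7 CPM in Sham. The groups again did not overlap, with a log2 fold change of -0.47 ± 0.12 (adjusted p = 0.0233). The Stat5a call was lost when MR 2, MR 3 or any of the Sham libraries was left out (adjusted p 0.056 to 0.0753, edgeR), and with scaling by library totals (0.112). Reads that match both Stat5 genes could be split between them by the counting, so the values of each are less certain than their common direction.

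Stat2, a factor of type I interferon signalling, had 41.7, 38.4 and 44.9 CPM in MR and 28.6, 35.3 and 39.3 CPM in Sham, and its log2 fold change of 0.28 did not pass (adjusted p = 0.121, edgeR). Stat3, which relays interleukin-6 family signals, had 209, 175 and 186 CPM in MR and 205, 210 and 242 CPM in Sham, with a log2 fold change of -0.21 (95% interval -0.45 to 0.03). MR 1 lay inside the Sham range for Stat3. Stat6, the interleukin-4 factor, had 102, 94.6 and 96.6 CPM in MR and 89.7, 88.1 and 96.2 CPM in Sham, with a log2 fold change of 0.10. Stat4, used by lymphocytes, could not be tested, with 0 to 3 counts per library.

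The 12 tested genes with an Irf symbol include the 3 IRF2-binding protein genes. Irf5, Irf8 and Irf3 were higher in MR, and the only lower one was the IRF2-binding protein gene Irf2bp1. Scaling by library totals also called Irf1, Irf7 and Irf9 higher and did not call Irf2bp1. Irf5 encodes a factor of inflammatory gene expression in macrophages. Its level was 10.1, 11.1 and 7.98 CPM in MR and 4.58, 3.87 and 5.5 CPM in Sham. The lowest MR library exceeded the highest Sham library, and the log2 fold change was 1.06 ± 0.18 (adjusted p = 0.00527, edgeR). With MR 3 as the sole MR library Irf5 no longer passed (log2 fold change 0.77, adjusted p = 0.0784, edgeR). Irf8, needed for monocyte and dendritic cell development, had 7.45, 7.17 and 8.28 CPM in MR and 4.42, 5.62 and 5.78 CPM in Sham. Its groups did not overlap either, with a log2 fold change of 0.54 ± 0.16 (adjusted p = 0.0353), but the call was lost whichever library was left out (adjusted p 0.0551 to 0.122). Both were higher in MR, as were the macrophage markers given above. Those markers summed to 878, 931 and 703 CPM in MR libraries 1 to 3. In MR 3 Irf5 was at its lowest MR level and Irf8 at its highest. The part of those cells in the result was not tested.

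Irf3, the constitutive factor activated by nucleic acid sensing, was the most abundant IRF per gene length, with 43.3 ± 5.16 TPM in MR and 26.4 ± 2.93 TPM in Sham (SD, n = 3 each). In CPM it stood at 53.4, 64 and 56.3 in MR and 43.4, 42 and 48.1 in Sham. Every MR library was above every Sham library, and the log2 fold change was 0.38 ± 0.10 (adjusted p = 0.0232), lost without MR 2, Sham 1 or Sham 2 (adjusted p 0.0768 to 0.0857, edgeR). Irf2bp1, described in human cells as a corepressor that binds IRF2, had 16.5, 14.4 and 15 CPM in MR and 20.7, 17.9 and 20.7 CPM in Sham. It fell by 0.37 ± 0.11 on the log2 scale without overlap of the groups (adjusted p = 0.0402), a call lost without MR 2, MR 3 or any of the Sham libraries (adjusted p 0.0514 to 0.119, edgeR).

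Irf7, Irf1 and Irf9, which interferons themselves induce, did not pass with TMM scaling. Irf7, the factor that amplifies type I interferon production, had 13.1, 12.8 and 14.9 CPM in MR and 7.94, 9.19 and 13.4 CPM in Sham. Sham 3 lay inside the MR range, and the log2 fold change of 0.43 had an adjusted p of 0.121 (edgeR), which passed without Sham 3. Irf1, induced mainly by interferon gamma, had 30.9, 35.7 and 36.6 CPM in MR and 32.4, 31.7 and 24.6 CPM in Sham. Irf9, the DNA-binding part of the complex with STAT2, had 27.5, 29.8 and 33.2 CPM in MR and 23.1, 26.3 and 28.5 CPM in Sham. Both had a log2 fold change of 0.22, with overlapping groups and 95% intervals of -0.05 to 0.48 for Irf1 and -0.03 to 0.47 for Irf9. Irf4, a lymphoid and macrophage factor, had 3.53, 4.42 and 1.5 CPM in MR and 2.29, 1.75 and 1.59 CPM in Sham. The fat-marker-rich MR libraries 1 and 2 were its highest, MR 3 was its lowest, and the log2 fold change was 0.71 (adjusted p = 0.195, edgeR). Irf4 passed when MR 3 was left out, and its log2 fold change was -0.35 with MR 3 alone. Irf2, an antagonist of Irf1 at shared sites, Irf2bp2 and Irf2bpl had log2 fold changes of 0.10, -0.11 and -0.16, and none of the 3 passed.

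**Figure D2:**
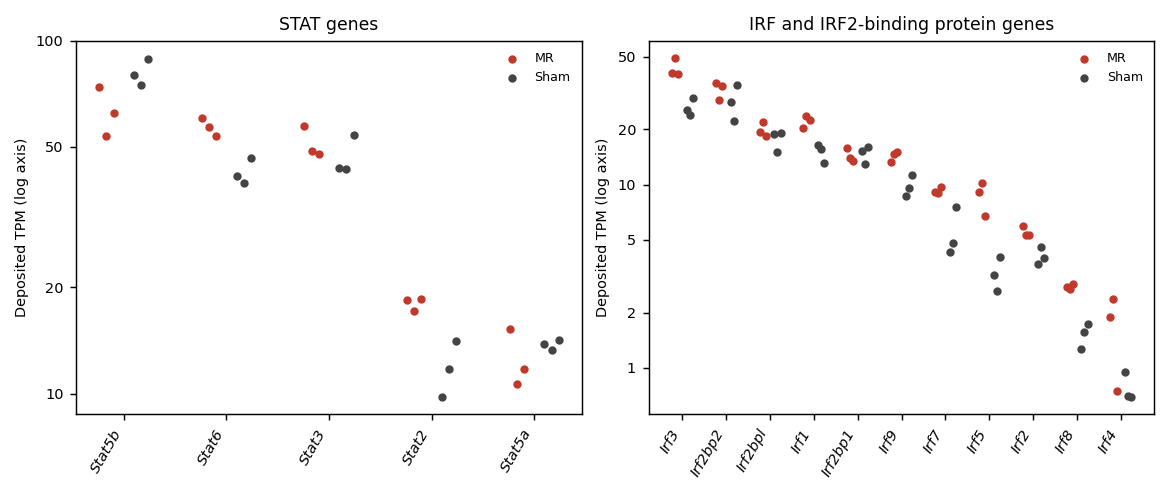
Level of tested STAT, IRF and IRF2-binding protein genes per library in the authors' TPM on a log axis, MR in red left of Sham in grey, ordered by mean level. TPM allows levels of different genes to be compared but carries no TMM scaling. Stat5a and Irf2bp1, which do not overlap between MR and Sham in CPM, overlap here. Irf1, Irf2, Irf7, Irf9, Stat2 and Stat6 overlap in CPM and did not pass, but here their MR libraries all lie above Sham.

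The Oas family had the highest family median. Some but not all of its proteins make oligoadenylates that activate the ribonuclease RNase L on sensing double-stranded RNA. Of 7 tested members 4 were higher in MR and 0 lower, and the median log2 fold change was 0.75. Oasl2, an OAS-like protein with ubiquitin-like domains, was the most abundant of the family per gene length (22.4 ± 2.42 TPM in MR and 10.1 ± 2.23 TPM in Sham, SD, n = 3 each). Its level was 49.3, 52.8 and 65 CPM in MR and 27, 29.2 and 37.9 CPM in Sham. The groups were clearly apart, with a log2 fold change of 0.83 ± 0.14 (adjusted p = 0.00528, edgeR). Oas2 had 11.8, 11.8 and 11.5 CPM in MR and 4.1, 7 and 9.4 CPM in Sham. The 3 MR libraries were nearly equal and the Sham libraries spread widely below them, for a log2 fold change of 0.79 ± 0.24 (adjusted p = 0.0405). Oas1b had 5.23, 5.51 and 5.29 CPM in MR and 2.61, 3.06 and 4.19 CPM in Sham, with a log2 fold change of 0.71 ± 0.20 (adjusted p = 0.0316). Oas1g had 1.57, 1.02 and 1.4 CPM in MR and 0.373, 0.657 and 0.723 CPM in Sham, and its fold change was the steepest of the family at 1.22 ± 0.36 on the log2 scale (adjusted p = 0.0357).

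Apart from Oasl2 the Oas calls rested on the full set of libraries. Oas2 was lost without MR 1, MR 2, MR 3, Sham 1 or Sham 2 (adjusted p 0.0676 to 0.0959, edgeR), and Oas1b without the same libraries (0.0559 to 0.121). Oas1g was lost without MR 1, MR 3 or any of the Sham libraries (adjusted p 0.062 to 0.142, edgeR). Oas1a and Oas1g are related genes of the same cluster, and whether reads were shared between them was not measured. Oas1a had a log2 fold change of 0.65 (adjusted p = 0.185, edgeR). Oasl1 and Oas1c, at 0.75 and 0.42, did not pass either, although all 7 tested members had a positive log2 fold change. Oas3 had 15, 17 and 8 counts in MR and 4, 2 and 4 counts in Sham, too few to be tested.

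The Ifi symbols cover unrelated proteins, and 8 of the 16 tested members were higher in MR and 0 lower (11 and 0 with scaling by library totals), for a median of 0.54 on the log2 scale. Ifi27l2a, which encodes a small hydrophobic protein of the Ifi27 group, had the largest of these changes with all libraries in the fit. It had 71.4, 108 and 32.3 CPM in MR and 22.3, 18.1 and 27.4 CPM in Sham. MR 3 stood just above the Sham libraries and far below the other MR libraries, a pattern shared with the fat cell markers; their part in the result was not tested. The log2 fold change was 1.64 ± 0.35 (adjusted p = 0.0112, edgeR) with all libraries and 0.51 (adjusted p = 0.141) with MR 3 alone, and the call was also lost without Sham 1 (adjusted p = 0.057) and with robust dispersion (0.0956). Ifi27 had 50.9, 65.9 and 50.2 CPM in MR and 36, 31.7 and 35.7 CPM in Sham. Here all MR libraries were well above Sham, the log2 fold change was 0.69 ± 0.12 (adjusted p = 0.00527), and the call held without each library in turn and with MR 3 alone (log2 fold change 0.53, adjusted p = 0.0406). Ifi27l2b was scarce, at 0.392 to 0.704 CPM in MR and 0.578 to 0.876 CPM in Sham, and did not pass.

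The PYHIN genes, whose products bind nucleic acids and whose family includes DNA sensors, lie side by side in a cluster of 11 members, of which 8 were tested and 4 were higher in MR. Ifi203 had 34.5, 48.5 and 43.3 CPM in MR and 22.4, 32.3 and 30.7 CPM in Sham, with a log2 fold change of 0.57 ± 0.16 (adjusted p = 0.0281, edgeR). Ifi204, a sensor of cytosolic DNA, had 9.94, 13.1 and 9.78 CPM in MR and 7.35, 6.64 and 7.81 CPM in Sham, with a log2 fold change of 0.59 ± 0.16 (adjusted p = 0.0251). Ifi209 had 3.6, 3.33 and 3.94 CPM in MR and 1.54, 2.33 and 2.39 CPM in Sham, with a log2 fold change of 0.81 ± 0.23 (adjusted p = 0.0311). None of these 3 overlapped between the groups. Ifi207 had 24.1, 20.2 and 27.4 CPM in MR and 16, 13.6 and 20.8 CPM in Sham; here Sham 3 exceeded MR 2, and the log2 fold change of 0.51 ± 0.16 passed narrowly (adjusted p = 0.0478). Every call of the cluster was lost when some library was left out. Ifi203 was lost without MR 2, MR 3, Sham 1 or Sham 3 (adjusted p 0.0566 to 0.0967, edgeR), Ifi204 without MR 2, Sham 1 or Sham 2 (0.0749 to 0.0839). Ifi207 was lost without MR 1, MR 3, Sham 1 or Sham 2 (adjusted p 0.0854 to 0.16, edgeR), and Ifi209 without MR 1, MR 3 or any of the Sham libraries (0.054 to 0.113). These genes resemble each other, and Ifi203 has the copy Ifi203-ps, so reads could be split between them. Ifi213 had 2.03, 3.01 and 3.14 CPM in MR and 0.266, 1.24 and 1.81 CPM in Sham, without overlap, and its log2 fold change of 1.37 missed the threshold (adjusted p = 0.0645, edgeR). It passed with scaling by library totals (adjusted p = 0.0317, edgeR), in limma-voom (0.0413), with the replicate number as a block (0.0201) and without Sham 3 (0.0477), and its log2 fold change was 0.84 to 1.94 without each library in turn.

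Ifi47, an immunity-related GTPase, had 7.26, 6.98 and 8.33 CPM in MR and 4.1, 4.96 and 4.41 CPM in Sham. The groups did not overlap, and the log2 fold change was 0.75 ± 0.16 (adjusted p = 0.00999, edgeR). Ifi35, whose human counterpart binds the interferon-induced protein NMI, had 19.7, 21.9 and 20.9 CPM in MR and 15.8, 15.5 and 18 CPM in Sham. Its change was small, 0.34 ± 0.11 on the log2 scale (adjusted p = 0.045), and was lost without MR 1, MR 2, MR 3, Sham 1 or Sham 2 (adjusted p 0.0581 to 0.144). Ifi30, a lysosomal thiol reductase of antigen processing, had 8.44, 8.64 and 8.73 CPM in MR and 9.38, 8.25 and 9.54 CPM in Sham, and its log2 fold change of -0.07 had a 95% interval of -0.36 to 0.21. Ifi44 ranged over 6.02 to 7.73 CPM in MR and 3.68 to 9.62 CPM in Sham and did not pass.

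The Ifitm genes encode membrane proteins that block entry of enveloped viruses, and 3 of 4 tested members were higher in MR. Ifitm3 was the most abundant of all 71 tested members per gene length, with 439 ± 40.2 TPM in MR and 245 ± 14.2 TPM in Sham (SD, n = 3 each). Its level was 105, 124 and 118 CPM in MR and 80.9, 80.4 and 83.3 CPM in Sham. Both groups were tight and apart, and the log2 fold change was 0.51 ± 0.09 (adjusted p = 0.00667, edgeR). Ifitm2, next to it on the chromosome, had 34.5, 42.8 and 34.3 CPM in MR and 25.3, 25.7 and 23 CPM in Sham. Its log2 fold change was 0.59 ± 0.11 (adjusted p = 0.0064), past the threshold without each library in turn but not with MR 3 alone (adjusted p = 0.0737). Ifitm10 had 2.62, 2.82 and 3.34 CPM in MR and 1.7, 1.68 and 1.74 CPM in Sham, with a log2 fold change of 0.78 ± 0.22 (adjusted p = 0.0304). Its groups were apart, but the call was lost without MR 2, MR 3 or any of the Sham libraries (adjusted p 0.0576 to 0.103). Ifitm1 had 2.03, 2.69 and 2.69 CPM in MR and 2.66, 2.63 and 3.11 CPM in Sham and did not pass, with a log2 fold change of -0.17.

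Bst2 encodes tetherin, which holds budding virus at the cell surface. Its level was 21.4, 28.6 and 23.5 CPM in MR and 17, 17.7 and 20.6 CPM in Sham. MR 1 exceeded Sham 3 by little, and the log2 fold change of 0.41 ± 0.13 (adjusted p = 0.0474, edgeR) was lost without MR 2, MR 3 or any of the Sham libraries (adjusted p 0.0539 to 0.161). The antiviral GTPase gene Mx2 had 2.35, 2.5 and 5.39 CPM in MR and 1.92, 1.61 and 2.46 CPM in Sham, with only MR 3 far above Sham; the log2 fold change of 0.80 missed the threshold (adjusted p = 0.122). It was 0.28 without MR 3, and it passed with MR 3 as the sole MR library (1.43, adjusted p = 0.0188, edgeR) and with scaling by library totals (0.99, adjusted p = 0.0481). Rsad2, whose product viperin halts virus replication through an altered nucleotide, had 10.9, 8.64 and 13.3 CPM in MR and 7.3, 10 and 11.5 CPM in Sham. Its groups overlapped and the log2 fold change was 0.20 (95% interval -0.25 to 0.65).

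The Gbp genes, interferon gamma-induced GTPases that attack membranes around microbes, gave 4 of 9 tested members higher in MR and 0 lower, with a median log2 fold change of 0.22. Gbp2, the most abundant per gene length (46.1 ± 2.75 TPM in MR and 27.1 ± 3.09 TPM in Sham, SD, n = 3 each), had 42.4, 42.6 and 50.4 CPM in MR and 33.2, 30.9 and 35.9 CPM in Sham. All MR libraries were above Sham, with a log2 fold change of 0.44 ± 0.10 (adjusted p = 0.0144, edgeR). Gbp8 had 4.45, 6.15 and 4.44 CPM in MR and 2.5, 2.63 and 3.04 CPM in Sham, and a log2 fold change of 0.88 ± 0.20 (adjusted p = 0.015). Gbp6 had 6.67, 7.11 and 9.63 CPM in MR and 3.62, 4.31 and 6.29 CPM in Sham, and a log2 fold change of 0.74 ± 0.23 (adjusted p = 0.0425). Gbp11 was scarce, with 2.09, 1.54 and 1.25 CPM in MR and 0.906, 0.511 and 0.578 CPM in Sham, and had the steepest change of the family, 1.23 ± 0.35 on the log2 scale (adjusted p = 0.0306). The 4 genes did not overlap between groups, yet each call was lost when some library was left out. Gbp2 was lost without MR 3, Sham 1 or Sham 2 (adjusted p 0.0507 to 0.0609, edgeR), and Gbp8 without Sham 1 or Sham 2 (0.0552 to 0.0678). Gbp6 was lost without MR 2, MR 3, Sham 1 or Sham 2 (adjusted p 0.0601 to 0.158, edgeR), and Gbp11 without MR 1, MR 2, Sham 2 or Sham 3 (0.0633 to 0.102).

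The other abundant Gbp genes overlapped between groups. Gbp9 had 35.8, 43.1 and 50.8 CPM in MR and 30.2, 54.5 and 37.1 CPM in Sham, with Sham 2 the highest library of all, and Gbp3 had 18.6, 20 and 21.2 CPM in MR and 16.2, 21.6 and 21 CPM in Sham. Their log2 fold changes were 0.10 and 0.03. The Irgm and Iigp genes encode immunity-related GTPases, as Ifi47 does, that act with the GBP proteins on vacuoles. Past the threshold in edgeR or DESeq2 were 0 of their 4 tested members, and 0 at an unadjusted p under 0.05. With 22.4% of all tested genes called in edgeR, a 0 among 4 genes does not set them apart. Irgm2 had 44.9, 40.2 and 57.6 CPM in MR and 31.4, 47.4 and 42.9 CPM in Sham, Irgm1 35.2, 35.2 and 42.7 CPM in MR and 36.5, 38.5 and 41.5 CPM in Sham, and Iigp1 46.8, 45.3 and 74.5 CPM in MR and 48.6, 75 and 70.9 CPM in Sham. The log2 fold changes of Irgm2, Irgm1 and Iigp1 were 0.24, -0.04 and -0.22, each smaller than the spread among the libraries of a group. Iigp1 has the copy Iigp1c, with which reads could be shared.

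The Ifit genes are textbook targets of type I interferon that bind viral RNA, and 0 of 6 tested members passed in edgeR. The count was also 0 in the 6 fits with a library left out and in DESeq2, and 0 had an unadjusted p under 0.05 in edgeR. Of all tested genes 11.8% were higher and 10.6% lower, so a 0 among 6 genes does not set them apart from other genes. Ifit3 had 26.3, 27.4 and 29.9 CPM in MR and 25.7, 18.6 and 27 CPM in Sham. Sham 2 was low and the other Sham libraries stood near or within the MR range, so the log2 fold change of 0.23 had a 95% interval of -0.07 to 0.53. Ifit1 had 10.4, 14.1 and 19.3 CPM in MR and 15.2, 7.37 and 13.8 CPM in Sham, with a log2 fold change of 0.26 (95% interval -0.34 to 0.87). MR 3 lay above every Sham library and Sham 2 below every MR library, while the other libraries overlapped. Ifit1bl1 had 12.3, 14.1 and 14.8 CPM in MR and 16.1, 10.8 and 14.9 CPM in Sham, with a log2 fold change of -0.02. Ifit3 and Ifit3b, and Ifit1bl1 and Ifit1bl2, are close copies whose counts may be shared. Scaling by library totals called 1 of the 6 higher, Ifit3, at 0.43 on the log2 scale.

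Isg15, the ubiquitin-like protein that is among the most strongly interferon-induced transcripts, had 3.79, 4.74 and 5.09 CPM in MR and 3.73, 2.92 and 6.22 CPM in Sham. Sham 3 was above every MR library, and the log2 fold change of 0.09 had a 95% interval of -0.50 to 0.68. Isg20, an antiviral exonuclease, had 6.15, 5.83 and 7.53 CPM in MR and 4.32, 5.18 and 4.84 CPM in Sham; the groups did not overlap, but the log2 fold change of 0.45 missed the threshold with TMM scaling (adjusted p = 0.0758, edgeR) and passed with library totals (0.0146). Isg20l2, a nuclease named for its similarity to Isg20, had 19.9, 19.1 and 17.8 CPM in MR and 19.3, 20.4 and 17.5 CPM in Sham.

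**Figure D3:**
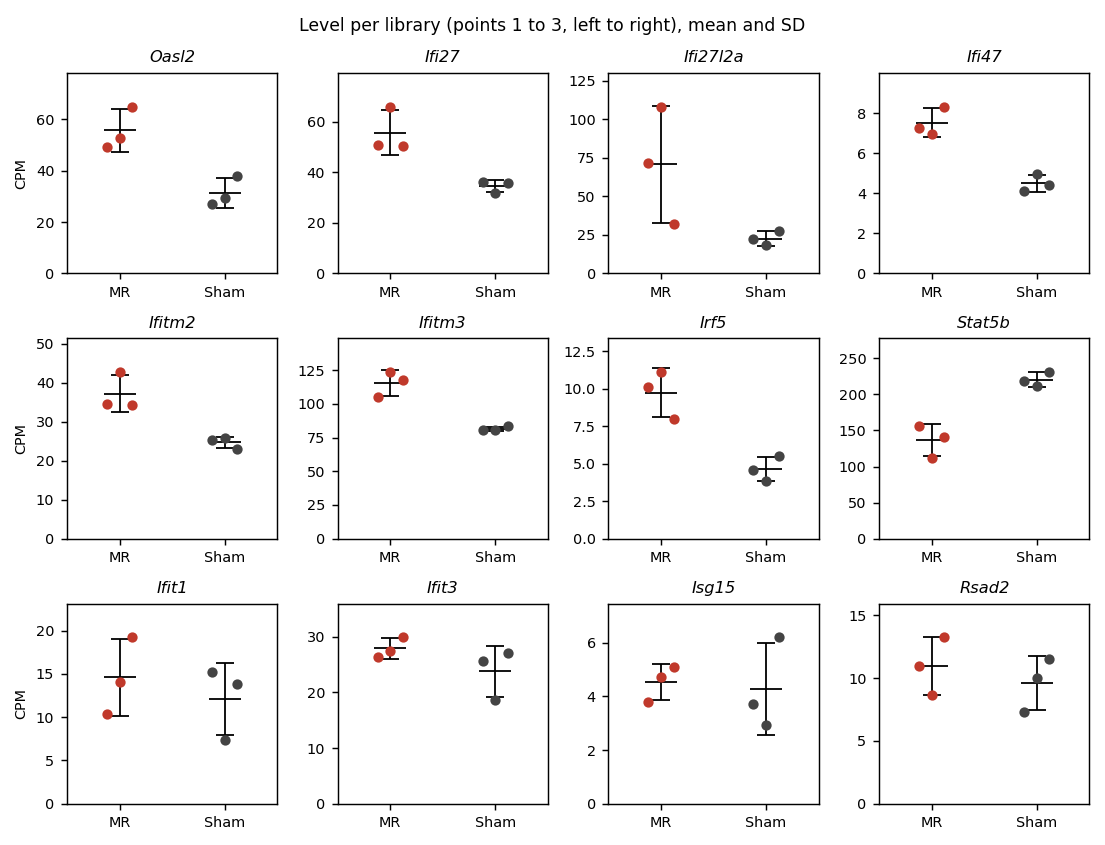
Level in CPM of 12 members in each library (points, libraries 1 to 3 from left to right) with the group mean and SD (bars, n = 3), MR left of Sham; each axis starts at 0. The upper 2 rows hold members past the threshold, among which Ifi27l2a shows 2 MR libraries at 71.4 and 108 CPM and MR 3 at 32.3 CPM, and the bottom row shows Ifit1, Ifit3, Isg15 and Rsad2, whose groups overlap.

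The members did not vary independently among libraries of a group. MR 3 was the highest of the MR libraries for 42 of the 71 tested members (59.2%), against 30.4% of all tested genes. In the same way Sham 3 was the highest Sham library for 43 members (60.6%), against 35.1% of all genes. Members of 1 library share its source, so these counts describe libraries 3 and are not tests. With Sham 3 left out the median log2 fold change of members was 0.43, and without MR 3 it was 0.21, on either side of the 0.28 with all libraries.

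**Figure D4:**
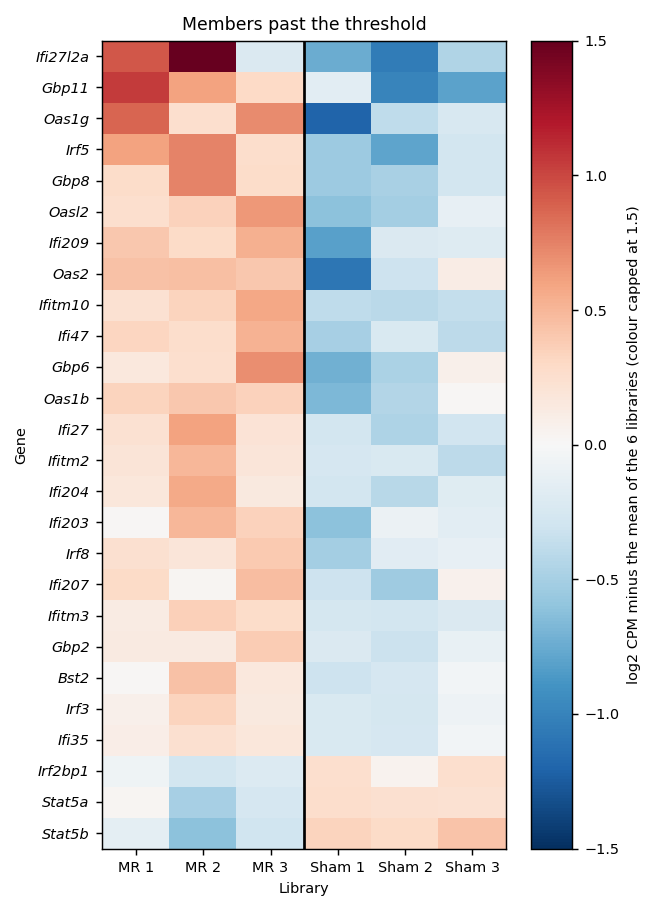
Log2 CPM of the 26 members past the threshold in each library, minus the mean of the 6 libraries, MR columns left of Sham columns and rows ordered by log2 fold change from Ifi27l2a to Stat5b. The Sham 3 column is paler than Sham 1 for Oas2, Gbp6, Oas1b and Ifi207, and MR 3 is blue for Ifi27l2a.

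The 16 members below the count filter were Gbp10, Gbp2-ps, Gbp2b, Ifi202b, Ifi206, Ifi214, Ifi44l, Ifitm5, Ifitm6, Ifitm7, Oas1d, Oas1e, Oas1f, Oas1h, Oas3 and Stat4. The highest summed count was 67, in Ifi206, with 4, 16 and 27 counts in MR and 2, 9 and 9 in Sham. Gbp2-ps, Ifi202b, Oas1d and Oas1h had 0 counts in all 6 libraries, where a count of 0 allows up to 3 counts, or 0.15 to 0.219 CPM per library; this limit covers counting error only.

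The rest of the pathway was read from gene lists without members of the set. List counts here and below stand against 11.8% of all tested genes higher and 10.6% lower. With scaling by library totals 4025 of all 15218 tested genes were higher and 574 lower. Of 21 interferon ligand genes 0 had enough counts to be tested, and 15 had 0 counts in every library. Together they gave 0, 1 and 3 counts in MR libraries 1 to 3 and 0, 2 and 3 counts in Sham libraries 1 to 3. Bulk tissue at this depth therefore held too few ligand transcripts to compare. Of 10 receptor and Janus kinase genes 0 were higher and 2 lower, and with scaling by library totals 5 were higher and 1 lower. Ifngr2, a chain of the interferon gamma receptor, had 79.3, 69.9 and 90.7 CPM in MR and 123, 118 and 116 CPM in Sham, a log2 fold change of -0.57 ± 0.11 (adjusted p = 0.00729, edgeR) past the threshold without each library in turn but not with MR 3 alone (-0.40, adjusted p = 0.109). Il10rb, a chain shared by the interferon lambda and interleukin-10 receptors, had 68.1, 57.5 and 64.4 CPM in MR and 80.5, 73.8 and 83 CPM in Sham, with a log2 fold change of -0.32 ± 0.10 (adjusted p = 0.04). Its call was lost without MR 2, MR 3 or any of the Sham libraries (adjusted p 0.057 to 0.131) and with MR 3 alone (0.219).

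Of 18 tested nucleic acid sensors and adaptors 4 were higher and 0 lower. The count was 8 with scaling by library totals, 1 without MR 2, MR 3, Sham 1 or Sham 2, and 2 with MR 3 alone. Tlr8, an endosomal RNA receptor, had 6.34, 5.38 and 6.19 CPM in MR and 2.82, 3.14 and 2.17 CPM in Sham, a log2 fold change of 1.14 ± 0.19 (adjusted p = 0.00466, edgeR) that held without each library in turn and with MR 3 alone. Zbp1, a sensor of left-handed nucleic acids, had a log2 fold change of 1.15, Ikbke, a kinase upstream of IRF3, 0.74, and Adar, an RNA-editing enzyme, 0.35. Zbp1 was lost without MR 2, MR 3, Sham 1 or Sham 2 (adjusted p 0.0512 to 0.0966, edgeR), Ikbke without MR 2, MR 3 or any of the Sham libraries (0.0772 to 0.121), and Adar without any of the MR libraries, Sham 1 or Sham 2 (0.0922 to 0.136). Of 11 tested feedback inhibitors 3 were higher and 0 lower, with 5 higher under library totals, 1 without MR 2, MR 3 or Sham 2 or with MR 3 alone, and 0 without Sham 1. Cish, a STAT5-induced suppressor of cytokine signalling, had 108, 119 and 156 CPM in MR and 71.4, 54.9 and 102 CPM in Sham, a log2 fold change of 0.74 ± 0.21 (adjusted p = 0.0316), in the same libraries in which Stat5a and Stat5b were lower. Ptpn6, a phosphatase of blood cells, and Sh2b3, an adaptor that restrains Janus kinases, had log2 fold changes of 0.98 and 0.37. Cish was lost without MR 3, Sham 1 or Sham 2 (adjusted p 0.0882 to 0.119, edgeR), Ptpn6 without MR 2, Sham 1 or Sham 2 (0.0523 to 0.0811), and Sh2b3 without MR 2, MR 3 or Sham 1 (0.0628 to 0.0785).

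Of 40 other tested interferon-stimulated genes 15 were higher and 0 lower, with a median log2 fold change of 0.40. Lgals3bp, a secreted galectin-binding glycoprotein, had 61.6, 73.8 and 56.7 CPM in MR and 19.7, 30.9 and 32 CPM in Sham, with a log2 fold change of 1.22 ± 0.17 (adjusted p = 0.00241, edgeR). Shisa5, Helz2, a helicase coactivator, and Ly6e, a membrane-anchored protein of virus entry, had log2 fold changes of 0.65, 0.90 and 0.58. These 4 passed without each library in turn, and all but Ly6e (adjusted p = 0.0641, edgeR) with MR 3 alone. The count of 15 was 30 with scaling by library totals (median 0.60), 8 without MR 2 or MR 3, 6 without Sham 1, 10 without Sham 2 and 4 with MR 3 alone. Of 8 tested GTPase and PYHIN genes outside the set 1 was higher, near the share of all tested genes (11.8%). It was Mndal at 0.51, a call lost without MR 2, Sham 1 or Sham 2 (adjusted p 0.0722 to 0.0982, edgeR). Of 14 tested STAT3 target genes 5 were higher and 0 lower. The count higher was 8 with scaling by library totals, 3 without Sham 1, 2 without Sham 2 and 3 with MR 3 alone, and 1 gene was lower without MR 3, with MR 3 alone or with the replicate number as a block. Timp1, a protease inhibitor, and Osmr, the oncostatin M receptor, had log2 fold changes of 1.24 and 0.59 and passed without each library in turn and with MR 3 alone. Fgl2, at 0.41, was lost without Sham 2 (adjusted p = 0.058, edgeR) and with MR 3 alone (0.0777). The haptoglobin gene Hp had 48.3, 74.5 and 1.2 CPM in MR and 0.959, 0.219 and 3.47 CPM in Sham, with MR 3 far below the other MR libraries, as for the fat cell markers, whose part in it was not tested; the call was lost without Sham 1 or Sham 2 (adjusted p 0.0709 to 0.093), and its log2 fold change was -0.35 with MR 3 alone.

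**Figure D5:**
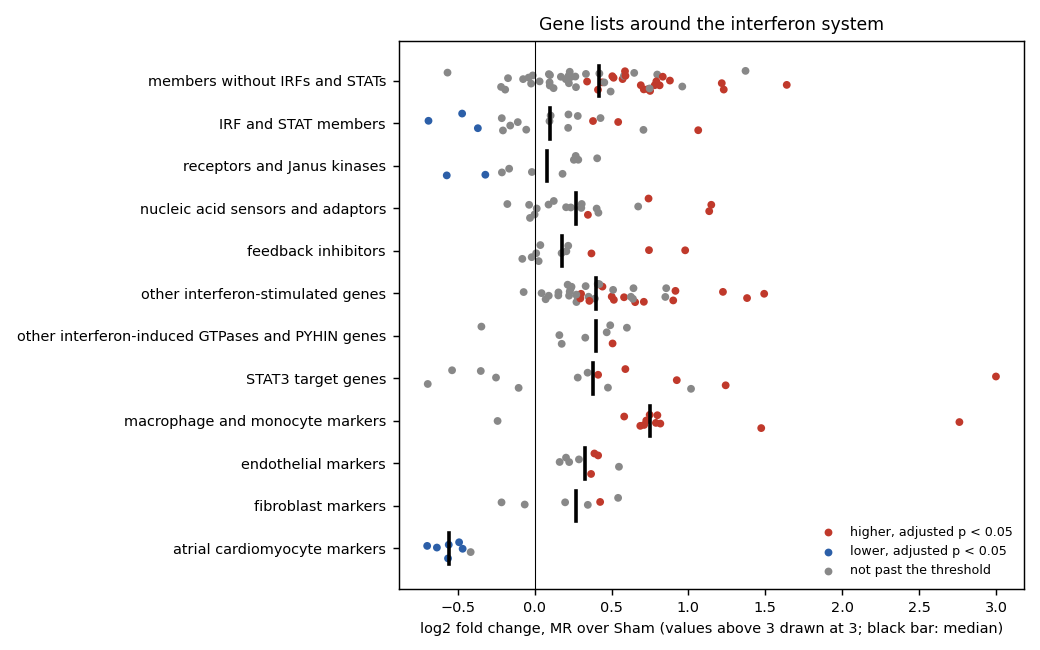
Log2 fold change of MR over Sham for tested genes (points) of the set, of the pathway lists and of 4 cell type marker lists, with the median of each list (black bar); values above 3 are drawn at 3. Medians are 0.40 for other interferon-stimulated genes, 0.75 for macrophage and monocyte markers and -0.56 for atrial cardiomyocyte markers.

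The cell type markers are read against the same shares of all tested genes, 11.8% higher and 10.6% lower. The macrophage and monocyte markers had a median log2 fold change of 0.75, Mrc1 was the exception to the 10 that were higher, and 5 of 11 were higher with MR 3 alone. Endothelial markers were higher for 3 of 8, a count that was 7 with scaling by library totals, 1 without MR 2, MR 3 or Sham 3, 2 without Sham 2, and 0 without Sham 1 or with MR 3 alone. Fibroblast markers were higher for 1 of 6, a count near the share of all tested genes. It was 4 with scaling by library totals and 0 without MR 3 or any of the Sham libraries. Of 7 lymphocyte markers only 2 had enough counts to be tested, and these 2 were higher. The count was 1 without Sham 3, in limma-voom or with robust dispersion, and 0 without MR 2, Sham 1 or Sham 2. Summed lymphocyte markers stood at 4.9, 21.2 and 4.59 CPM in MR and 1.92, 2.12 and 2.31 CPM in Sham. The 4 markers of plasmacytoid dendritic cells, the main producers of type I interferon in blood, summed to 27, 78 and 15 counts in MR and 16, 26 and 16 counts in Sham, with MR 2 the highest. Siglech, the one with enough counts to be tested, had 14, 12 and 11 counts in MR and 15, 23 and 11 in Sham and did not pass, while Ly6d had 6, 44 and 3 counts in MR and 0, 3 and 4 in Sham, and Ccr9 had 1, 17 and 0 counts in MR and 0 in each Sham library. No marker was at 0 in all libraries, and the part of any of these cells in the members' values was not tested.

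In the authors' deposited table an adjusted p is given for 76 members, of which 27 are listed as higher in MR and 4 as lower, against 12 and 14.6% of all genes with an adjusted p there. Of these, 20 of the 27 and 3 of the 4 were also called in edgeR, which is 20 of the 23 higher and 3 of the 3 lower edgeR calls. Among members called in the authors' deposited table alone are Oas3, with a log2 fold change of 1.32 there, and Mx1 with 0.79. Ifi213, Irf4, Oas1a and Stat2 are also listed there as higher, with 1.16, 1.085, 0.66 and 0.27. Stat3 is listed as lower, with -0.25. These 5 genes, given above as not past the threshold in edgeR with TMM scaling, therefore depend on the method.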

How the data were processed

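Poly(A) RNA was sequenced as stranded paired ends of 150 bases, per the labels' protocols. The submitters' processing notes name these tools without order or settings: HISAT2 2.1.0, Subread 2.0.1 with featureCounts, fastp, FastQC, MultiQC, SAMtools and DESeq2, on build GRCm39. Neither the annotation nor whether counting used strand is stated, so reads of overlapping or antisense genes may be mixed. Per the file headers, the authors deposited whole-number counts per gene, TPM values, log2 fold changes (MR over Sham) and p-values with adjusted p-values; the tool behind the fold changes and p-values is not stated.

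Counts were tested in edgeR 4.0.16 (R 4.3.3): TMM scaling, filterByExpr, quasi-likelihood test, 2 groups without covariates, Benjamini-Hochberg adjustment over 15218 genes at 0.05. Genes with a blank symbol (3320 in the table) stayed in. The SE is the size of the log2 fold change divided by the square root of F, and intervals are 95%. TPM serves only to compare levels between genes, and TPM means of MR and Sham are given without TMM scaling. Within groups, pairs of libraries had a chi-square per degree of freedom of 12.1 to 20.9, so none was counted as a duplicate. The series' design text calls the samples biological replicates, and nothing in the labels pairs them across groups. Every column of per-sample values was used, so 0 were left over.

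Named were all members past the threshold, the 3 most abundant by TPM of each family, members with groups apart and a log2 fold change of at least 1 in size, Irf and Stat genes (a few results are not reported here), and up to 4 genes per pathway list past the threshold by smallest p. Members and lists were chosen with earlier results of these data known. Other genes named, such as Oas3, Oas1a, Ifi44 and Isg20, were chosen after their values were seen. Promoter windows came from RefSeq on GRCm38.p6, an older build than that of the counts; the transcribed part of 63 of 80 windows of members was found in the gene's transcripts. The steps were tested on simulated data.

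Alternatives tried were scaling by library totals or by DESeq2 size factors, no filter, 1 CPM in 3 libraries, DESeq2 1.42.0, limma-voom (limma 3.58.1), robust dispersion, glmTreat, mitochondrial and haemoglobin genes left out, replicate number as a block, each library left out and MR 3 alone. Removal of GC content and length trends (splines with 5 degrees of freedom) was chosen after seeing the data.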

Additional observations from a re-analysis of the deposited data

How the results depend on the processing

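With all libraries 3408 genes passed; glmTreat against 1.5-fold left 250, with 0 members higher, 0 lower, 1 pathway list gene higher and 0 lower. MR 3 as the sole MR library left 976 genes, 7 members higher and 1 lower, and 10 pathway list genes higher and 1 lower. Library totals gave 36 members higher and 1 lower, and 57 pathway list genes higher and 1 lower, against 28 and 2 with TMM scaling; DESeq2 gave 15 members higher. Leaving out each library in turn gave 1583 to 3453 genes, 7 to 18 members higher, 1 to 3 lower, and 10 to 30 pathway list genes higher and 1 to 2 lower. With the replicate number as a block 21 members were higher and 2 lower. Same-numbered MR and Sham libraries had correlated deviations of -0.0267, 0.0146 and -0.16, and not every library correlated best with its own number. Among tested members, libraries 1 to 3 were the highest of their group for 10, 19 and 42 in MR and 10, 18 and 43 in Sham. Whether same-numbered libraries were handled together cannot be told from these values. Without the filter on low counts the estimated prior degrees of freedom were infinite, which pools the spread over all genes. Adjusted p-values of that edgeR fit (1.18e-41 for Ifi27l2a) were not relied on for single genes. They enter only the counts of calls, 28 members higher and 3 lower, and the tally over alternatives below. Robust dispersion called 22 higher and 3 lower, limma-voom 24 and 3, and GC content and length trends removed 24 and 3, with 1820 of all genes higher and 2000 lower there; it also called Stat3 lower (log2 fold change -0.31, adjusted p = 0.0314). The causes were not tested.

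Over 18 alternatives 0 of 468 values of the 26 called members turned sign, 325 kept their call and 143 lost it. The 26 were chosen for passing in the same counts, which makes a change of sign unlikely. In glmTreat and with robust dispersion the log2 fold change is that of the main fit. The 0 is therefore no added support for these calls. Signs turned for 28 of 450 values of named members not past the threshold and for Hp with MR 3 alone. Under library totals the log2 fold changes were Ifit1bl1 0.18, Ifitm1 0.031, Irf2bp2 0.091, Irf2bpl 0.048, Irgm1 0.16 and Isg20l2 0.20. With MR 3 alone they were Ifit1bl1 0.074, Irf2bp2 0.0033, Irf4 -0.35, Iigp1 0.19, Irgm1 0.13 and Hp -0.35. With GC content and length trends removed Ifit1bl1 was 0.079. Over the fits without each library in turn the ranges were Gbp3 -0.096 to 0.10, Gbp9 -0.085 to 0.36, Ifit1bl1 -0.18 to 0.096, Irf2bp2 -0.24 to 0.025, Irgm1 -0.14 to 0.012, Isg15 -0.12 to 0.44 and Isg20l2 -0.074 to 0.034. Depth limits the scarcest members: those under the filter could not be compared.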
